A study of Homo sapiens with 12 samples.

Results

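The 4 libraries titled combination R2 were compared with the 4 control libraries of the same series, 8 of its 12 libraries, chosen by their titles. All were made from total RNA of WM1366, an established human melanoma cell line that carries, as is known, a mutated and active NRAS. The series describes progressing WM1366 tumours grown as xenografts, human tumour cells in an animal host. The R2 tumours carry the label of a diet holding a MEK inhibitor and a CDK4/6 inhibitor, and the control tumours that of a control diet. The sample labels also describe cultured cells given palbociclib, a CDK4/6 inhibitor, at 0.1 µM and PD0325901, a MEK inhibitor, at 1 nM, and they give the same text for every library, the control libraries included. The remaining 4 libraries, combination R1, have the same diet label as R2. What R1 and R2 stand for, the time on diet, the host's species and strain, any removal of host reads and whether the replicates of a group came from separate tumours are not given in the sources used here. The p-values therefore measure the spread between libraries of 1 cell line, which may be technical.

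RAS proteins switch on the kinases RAF, MEK and ERK in turn, and ERK drives growth genes as well as its own feedback inhibitors. Cyclin D with CDK4 or CDK6 phosphorylates the retinoblastoma protein RB, which frees the E2F factors that start DNA replication. Melanomas with mutant NRAS signal through both arms, and inhibitors of MEK and of CDK4/6 are given together in this setting.

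Each library gave a normalised value (CPM, the reads of a gene scaled to those of the whole library) for 12931 gene rows, and means are given with the SD over n = 4 libraries. A gene is said to have risen or fallen where limma gave an adjusted p (Benjamini-Hochberg over all rows) under 0.05, and log2 differences are R2 minus control on log2(value + 0.5), which understates the change of low genes (given in brackets as log2). The R2 libraries held 21789510 to 34762198 listed reads and the control libraries 20003891 to 25229531, so that 3 reads corresponded to a value of 0.0872 to 0.158. Transcripts of the mitochondrial genome took 7.45% ± 2.43 of the R2 reads, with 3.86% in R2 replicate 3, and 8.17% ± 1.99 of the control reads.

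Within each group the libraries stood in pairs. The SD of the log2 difference between libraries over all rows was 0.203 for control replicates 1 and 2 and 0.221 for control replicates 3 and 4, against 0.325 to 0.419 across the pairs. In R2 it was 0.328 for replicates 1 and 2, 0.212 for 3 and 4, and 0.386 to 0.515 across. The labels give no reason for the pairs, and every pair of libraries differed by more than counting noise. For a named gene the adjusted p is therefore also given against control replicates 1 and 2 alone or 3 and 4 alone where that changed a call. This alternative was planned, while averaging each pair to 1 value, 2 values against 2, was added after the data were seen.

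R2 differed from control in 3667 rows, 28.4% of those tested: 1756 rose (13.6%) and 1911 fell (14.8%). More than 2-fold changes numbered 343 among the rises and 598 among the falls. In 3372 of the 3667 called rows the 4 R2 values did not overlap the 4 control values, while 34.8% of all rows had ranges that did not overlap. Called against both control pairs taken singly were 1576 of these rows, against replicates 1 and 2 only 361, against replicates 3 and 4 only 901 and against neither 829, and 0 were called in opposite directions. Fitted against control replicates 1 and 2 alone, 889 rows rose and 1143 fell. With each pair averaged, 524 rose and 789 fell. In bulk samples fewer cells of a type and less RNA per cell cannot be told apart.

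The genes that rose most were picked among called rows whose 4 R2 values did not overlap the 4 control values. The gap between their control and R2 values is therefore part of the choice. COL24A1 (chr1:85729233-86156943), a fibrillar collagen gene, read 18.9, 30.7, 16.7 and 18.9 in R2 replicates 1 to 4 and 0.0801, 0.0779, 0.104 and 0.0525 in the controls (log2 difference 5.20 ± 0.20 SE, adjusted p = 2.8e-10). R2 replicate 2 was the highest. HCLS1, a cytoskeletal adaptor known from blood cells, read 26.1, 33.98, 13.6 and 13.7 in R2 against a control mean of 0.226 ± 0.0521 (log2 4.84, adjusted p = 1.1e-07), with R2 replicates 1 and 2 above 3 and 4. EMC10, a subunit of the membrane protein insertion complex of the endoplasmic reticulum, rose from 1.55 ± 0.267 to 53.8 ± 16.4, or 34.6-fold (log2 difference 4.69 ± 0.19 SE, adjusted p = 3.9e-10). GPR65, an acid-sensing receptor, rose 85.0-fold from 0.207 ± 0.0609 to 17.6 ± 3.36. BEX2, an X-linked gene of the brain-expressed family, rose from 0.0826 ± 0.0849 to 14.1 ± 1.59.

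CSMD2 and TMEM47 had 0 reads in the 4 control libraries together. CSMD2 read 8.75, 5.59, 13.2 and 11.6 in R2, at least 296-fold higher when 3 reads over the control group are taken as the floor, and TMEM47, which codes for a small junction protein, was at least 229-fold higher at 7.83 ± 2.19. BCAN, the gene of the brain proteoglycan brevican, had 1451 R2 reads and 3 control reads, a depth-scaled ratio of 392 with a 95% counting interval of 134 to 1902. TRPM2, a calcium channel gene, rose to 16.5, 2.65, 19.0 and 14.8, with R2 replicate 2 lowest and still above the control maximum (log2 difference 3.95 ± 0.43 SE, adjusted p = 1.1e-05). SIGLEC15, a sialic acid receptor gene, rose 20.7-fold, FHAD1 36.8-fold and CLIC2, of the chloride intracellular channel family, 73.7-fold. None of these 12 rises lost its call against either control pair, which follows in part from how they were picked. The R1 range overlapped that of R2 for EMC10 (R1 mean 69.2 ± 11.8), GPR65 (10.8 ± 3.55), CSMD2 (8.31 ± 2.03), TMEM47 and SIGLEC15. TMEM47 read 3.11, 5.92, 2.66 and 3.06 in R1 and SIGLEC15 8.54, 42.7, 4.06 and 3.37. GPR65 and TMEM47 were still higher in R2 than in R1 (adjusted p = 0.010 and 0.0027). R1 lay below every R2 library for COL24A1 (0.224 ± 0.151), BCAN (0.0594 ± 0.0790), HCLS1, BEX2, TRPM2, FHAD1 and CLIC2.

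The genes that fell most were picked by the same conditions, so the gap between their control and R2 values is again part of the choice. MYH10 (chr17:8474205-8630761), which codes for nonmuscle myosin heavy chain IIB, read 70.0, 73.8, 76.6 and 67.3 in the controls and 0.0291, 0, 0.125 and 0 in R2 (log2 difference -7.08 ± 0.14 SE, adjusted p = 3.0e-13), or 5 reads in all of R2. In R1 it was also low, at 0.0413 ± 0.0572. GDA, guanine deaminase, fell from 38.9 ± 6.07 to 0.0424 ± 0.0382 and SOX15, a transcription factor gene, from 45.5 ± 5.54 to 0.594 ± 0.0745; both were also low in R1, at 0.0280 ± 0.0414 and 0.693 ± 0.401. CACNG8, an auxiliary calcium channel subunit gene, fell from 11.8 ± 2.38 to 0.0382 ± 0.00933 (log2 difference -4.49 ± 0.15 SE, adjusted p = 5.9e-11), but R1 kept 9.67 ± 0.793. DMKN and DMBT1, both known from epithelia, fell 116-fold and 62.1-fold. APOE, the lipid carrier apolipoprotein E, read 10.2, 15.8, 31.4 and 27.0 in the controls, higher in replicates 3 and 4, and 0.233, 0.186, 0.187 and 0.275 in R2 (log2 difference -4.78 ± 0.40 SE, adjusted p = 8.9e-07). RINL fell 38.3-fold, VIPR1, a receptor for vasoactive intestinal peptide, 29.1-fold, EFNB3, an ephrin ligand gene, 28.97-fold and PAPL 256-fold. PNMA2 fell from 23.2 ± 1.78 to 0.0582, 0.279, 1.81 and 1.61 in R2 replicates 1 to 4, with replicates 1 and 2 below 3 and 4. Each of these 12 falls was called against both control pairs.

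The falls were unevenly spread over the genome. On chromosome 15, 290 of 372 placed rows fell (78.0%), with a median log2 difference of -0.76, against 14.8% of all rows. From 30 Mb on, where 283 of 356 fell, the median row of R2 replicates 1 to 4 lay -0.74, -0.73, -0.82 and -0.78 from the control mean on the log2 scale, and that of the R1 libraries -0.18 to -0.24. The first 20 Mb of chromosome 17 held 166 falls among 189 rows (87.8%, median -0.87), while the rest of that chromosome had 59 of 498 and a median of 0.03. This stretch was also low in R1, at -0.67 to -0.77. On chromosome 12, 254 of 649 rows fell (39.1%, median -0.30), and the R2 libraries lay between -0.29 and -0.33 there. In its first 40 Mb 78 of 154 fell, with R2 at -0.36 to -0.44 and R1 lower still at -0.54 to -0.61. From 40 Mb on 176 of 495 fell, with R2 at -0.24 to -0.32 and R1 at 0.06 to 0.19. The part of chromosome 9 from 80 Mb had 101 falls among 304 rows (33.2%). On chromosome X 123 of 430 rows rose (28.6%), against 13.6% of all rows. Off chromosomes 12, 15 and 17, 1013 of 10097 placed rows fell (10.03%) and 1525 rose. Chromosomes 12, 15 and 17 held 769 of the 1782 falls among placed rows. Counts of falls on these chromosomes in the gene lists below are to be read against that share. DNA copy number was not analysed here.

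**Figure D1:**
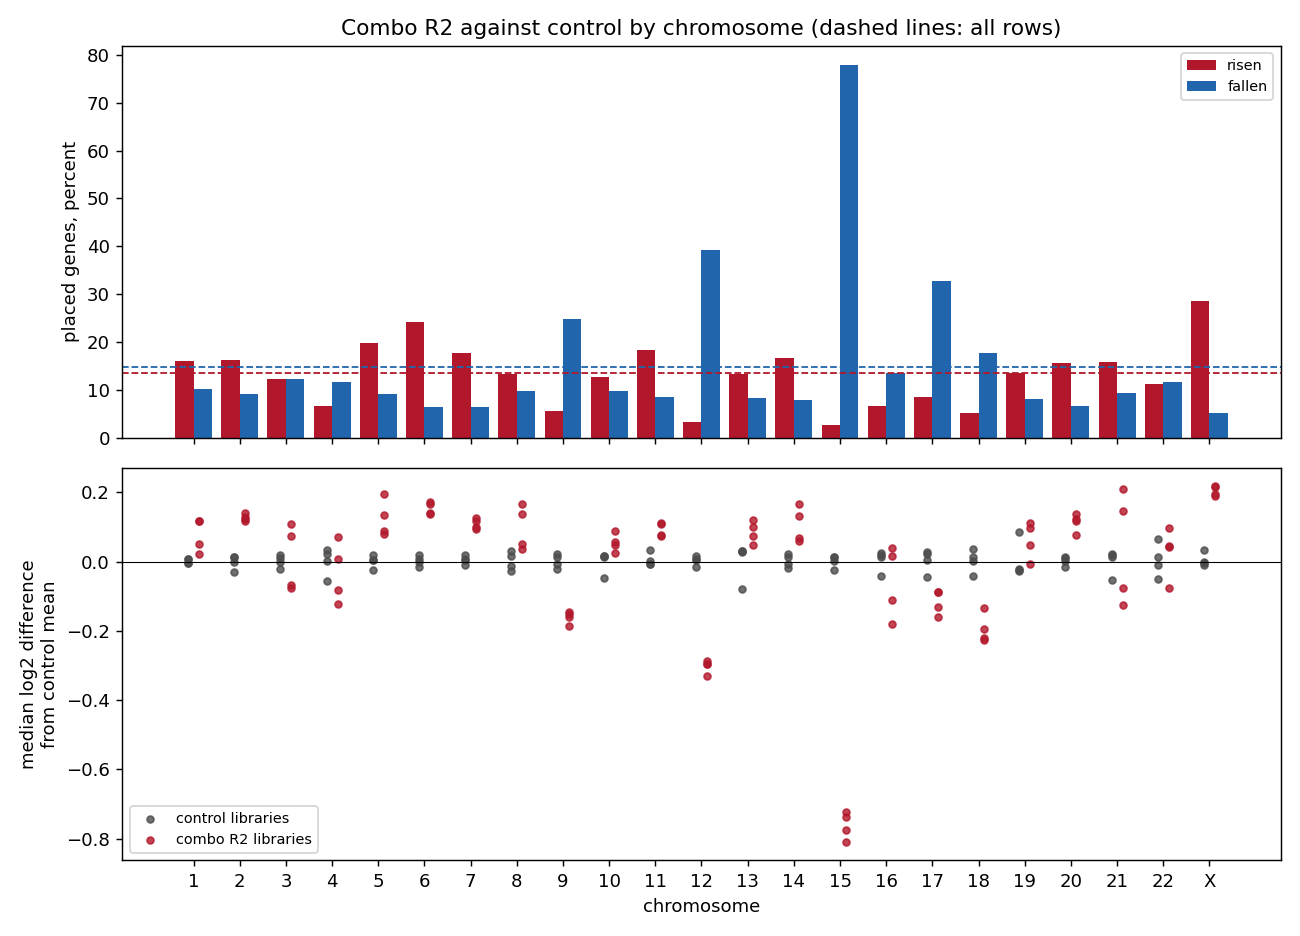
Share of rows that rose or fell in R2 against control on each chromosome (upper panel, percent of placed rows, dashed lines at the share of all rows) and the median log2 difference of each library from the control mean (lower panel). Chromosome 15 stands at 78.0% fallen, and its 4 R2 medians lie apart from the 4 control medians.

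Of 26 measured components of the inhibited RAS-RAF-MEK-ERK pathway 8 rose (30.8%), 2 fell (7.69%) and 16 did not pass the test. Of all rows 13.6% rose and 14.8% fell. The median log2 difference of the list was 0.16. MAP2K1, the gene of the drug target MEK1, fell from 60.1, 67.1, 75.4 and 74.8 in the controls to 35.8, 35.9, 37.7 and 35.3 in R2 (log2 difference -0.93 ± 0.11 SE, adjusted p = 2.9e-05), with R2 values all below the lowest control. It lies on chromosome 15 (chr15:66386817-66492312). MAP2K2, coding for MEK2, was 237 ± 23.6 in R2 and 215 ± 25.2 in control (log2 0.14, adjusted p = 0.43). MAPK3, coding for ERK1, was 82.4 ± 2.58 against 93.1 ± 10.6 (log2 -0.17, adjusted p = 0.30). SHC1, an adaptor between receptors and RAS, rose 1.72-fold (log2 0.79, adjusted p = 0.00017), and NF1, whose product switches RAS off, rose 1.81-fold (log2 0.86, adjusted p = 0.00045). NRAS was 144 ± 24.8 in R2 and 126 ± 12.6 in control (log2 0.19, adjusted p = 0.30), and BRAF 31.3 ± 1.78 and 26.5 ± 3.40 (log2 0.25, adjusted p = 0.19). The list's rises numbered 5 without R2 replicate 4 or control replicate 3, 5 against control replicates 1 and 2 alone and 4 with pairs averaged, and its falls 1 without any of R2 replicates 1 to 3 or control replicates 1, 2 or 4.

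**Figure D2:**
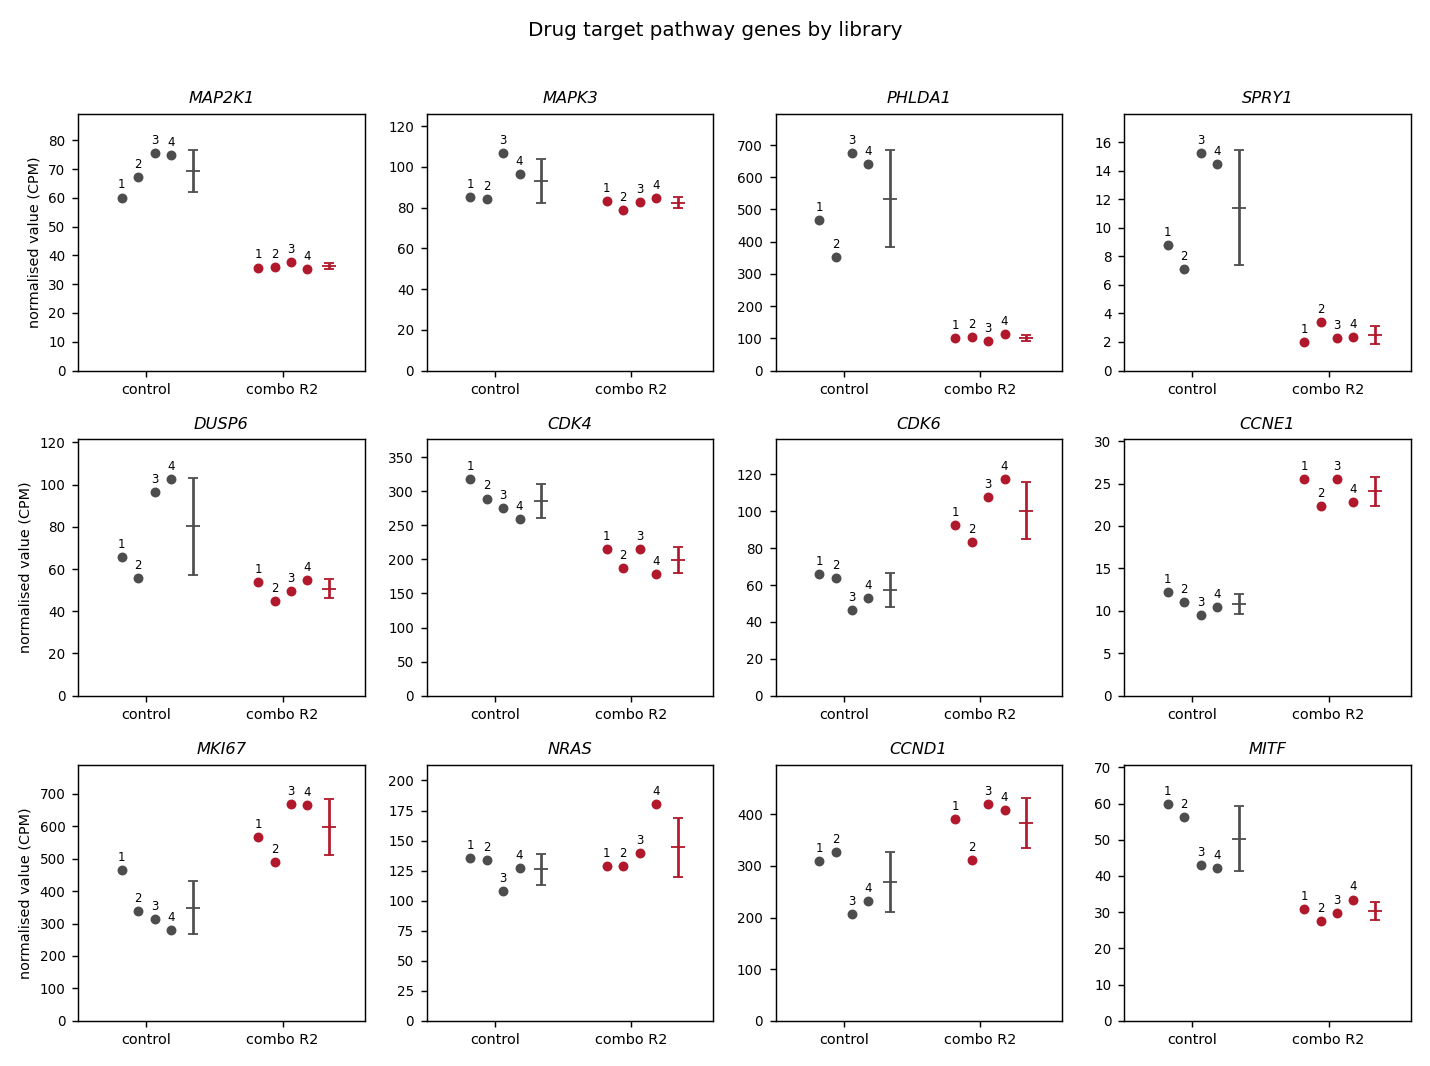
Normalised values (CPM) of 12 genes of the drugged pathways and cell state in the 4 control and 4 R2 libraries, with points numbered by replicate and bars for mean ± SD. MAP2K1, PHLDA1 and SPRY1 lie lower in all R2 libraries, CDK6, CCNE1 and MKI67 lie higher, and NRAS and CCND1 overlap.

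Genes that ERK signalling switches on fell more often than they rose: 14 of 29 fell (48.3%, against 14.8% of all rows) and 3 rose (10.3%, against 13.6%). The median log2 difference was -0.53, against a median of 0.03 over all rows. PHLDA1, an ERK-induced inhibitor of growth factor receptors, read 99.4, 104, 90.2 and 112 in R2 and 468, 353, 674 and 641 in control (log2 difference -2.35 ± 0.20 SE, adjusted p = 9.8e-07). Its control replicates 3 and 4 were the highest, and every R2 value was below every control value. SPRY1, a feedback inhibitor of the pathway, fell from 8.82, 7.13, 15.2 and 14.5 to 2.01, 3.40, 2.25 and 2.34 (log2 difference -1.94 ± 0.23 SE, adjusted p = 2.8e-05). EMP1, a membrane protein gene, fell 1.96-fold (log2 -0.995, adjusted p = 8.1e-05). DUSP6, the ERK phosphatase, read 53.7, 44.9, 49.5 and 54.9 in R2 and 65.9, 55.8, 96.5 and 103 in control. Control replicates 3 and 4 were the highest. It fell against all controls (log2 -0.61, adjusted p = 0.014), while the adjusted p was 0.24 against replicates 1 and 2 alone, 0.00038 against 3 and 4 alone, and 0.053 or 0.052 without control replicate 3 or 4. SPRY4 was 48.5 ± 13.6 against 56.0 ± 5.60 (log2 -0.25, adjusted p = 0.31) and FOSL1, an AP-1 factor gene, 1172 ± 167 against 963 ± 114 (log2 0.28, adjusted p = 0.16). EPHA4, an ephrin receptor gene, rose from 1.91 ± 0.300 to 5.82 ± 0.570 (log2 difference 1.40 ± 0.14 SE, adjusted p = 5.8e-06). CCND1 and POLR3G, a subunit gene of RNA polymerase III, rose too, both with overlapping ranges. POLR3G was 74.9 ± 20.0 against 51.3 ± 8.19 (log2 0.52, adjusted p = 0.032), with adjusted p = 0.21 and 0.0502 against the control pairs and 0.054 to 0.10 without R2 replicate 3 or 4 or control replicate 1, 3 or 4. Of the 29 genes, 7 fell against control replicates 1 and 2 alone and 14 against 3 and 4 alone, 9 fell without control replicate 3 or without 4, and 3 fell with pairs averaged. The count of rises was 1 without R2 replicate 3 or 4 or control replicate 3 or 4. Of the 14, 4 lie on chromosomes 12, 15 or 17, which held 769 of all 1782 placed falls.

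In the cyclin D-CDK4/6-RB list 7 of 26 members rose (26.9%) and 3 fell (11.5%), against 13.6% and 14.8% of all rows. CDK4, a drug target, fell from 319, 289, 276 and 259 to 215, 187, 215 and 179 (log2 difference -0.52 ± 0.13 SE, adjusted p = 0.0077), and CDK6, the other target, rose from 65.8, 63.6, 46.3 and 53.05 to 92.7, 83.2, 108 and 118 (log2 difference 0.81 ± 0.17 SE, adjusted p = 0.0028). The R2 and control values of both genes did not overlap. CDK4 lies on chromosome 12, and its adjusted p was 0.081 against control replicates 3 and 4 alone; that of CDK6 was 0.060 against replicates 1 and 2 alone. CCNE1, the gene of cyclin E1, the partner of CDK2, rose 2.23-fold from 10.8 ± 1.15 to 24.1 ± 1.69 (log2 difference 1.13 ± 0.13 SE, adjusted p = 2.3e-05). CDK2 itself fell from 115 ± 9.38 to 81.1 ± 7.39 (log2 -0.50, adjusted p = 0.013, and adjusted p = 0.12 against control replicates 3 and 4 alone). CDKN2C, coding for the CDK4/6 inhibitor p18, rose from 26.3 ± 1.29 to 57.8, 68.9, 41.9 and 37.2 in R2 replicates 1 to 4 (log2 0.91, adjusted p = 0.0013). CCND1, cyclin D1, read 391, 312, 420.2 and 408 in R2 and 309, 326, 207 and 232 in control (log2 0.53, adjusted p = 0.040). Its ranges overlapped, its adjusted p was 0.42 against control replicates 1 and 2 alone, and it was 0.083 to 0.13 without R2 replicate 1, 3 or 4 or control replicate 3 or 4. E2F4, a repressive E2F factor gene, fell from 338 ± 32.2 to 259 ± 24.2 (log2 -0.38, adjusted p = 0.018), with an adjusted p of 0.051 without R2 replicate 3, 0.059 without control replicate 1 and 0.14 against control replicates 3 and 4 alone. CCND3 (160.2 ± 20.5 against 172 ± 7.52, log2 -0.11, adjusted p = 0.51), RB1 (79.5 ± 8.17 against 95.5 ± 10.1, log2 -0.26, adjusted p = 0.16), CDKN2A (138 ± 15.3 against 177 ± 24.5, log2 -0.36, adjusted p = 0.055, and adjusted p = 0.027 against control replicates 3 and 4 alone) and CDKN1A (9.24 ± 5.52 against 13.4 ± 3.59, log2 -0.68, adjusted p = 0.17) did not pass the test against all controls. The rises of the list numbered 3 without R2 replicate 1 and 4 without R2 replicate 3 or 4 or control replicate 3 or 4, and 6 members fell without R2 replicate 2. Against control replicates 1 and 2 alone 3 rose, against 3 and 4 alone 1 fell, and with pairs averaged 2 rose and 0 fell.

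Proliferation genes moved singly. MKI67, the gene of the proliferation marker Ki-67, read 566, 491, 669 and 666 in R2 and 466, 339.6, 313 and 279 in control (log2 difference 0.79 ± 0.18 SE, adjusted p = 0.0052), with an adjusted p of 0.098 against control replicates 1 and 2 alone. HMMR, a spindle and hyaluronan binding protein gene, rose 2.65-fold (log2 difference 1.37 ± 0.30 SE, adjusted p = 0.0033), and CENPA, the centromere histone gene, rose from 22.9 ± 2.36 to 37.7 ± 5.56 (log2 0.70, adjusted p = 0.013, and adjusted p = 0.098 against control replicates 1 and 2 alone). Of 43 G2/M genes 4 rose (9.30%) and 5 fell (11.6%), under the 13.6% and 14.8% of all rows. All 5 that fell lie on chromosomes 12, 15 or 17. PRC1, a spindle midzone gene on chromosome 15, fell from 257 ± 8.49 to 136 ± 7.65 (log2 -0.92, adjusted p = 0.0016), CCNB2, cyclin B2, from 72.1 ± 3.37 to 37.9 ± 1.63 (log2 -0.92, adjusted p = 0.0059, and adjusted p = 0.056 against control replicates 1 and 2 alone) and FOXM1, a mitotic transcription factor gene, from 493 ± 75.8 to 276 ± 35.9 (log2 -0.83, adjusted p = 0.012, and adjusted p = 0.12 against control replicates 3 and 4 alone). Falls numbered 3 without R2 replicate 2 or without control replicate 1, 2 or 3 and 2 against either control pair, and the rises 1 against control replicates 1 and 2 alone or with pairs averaged. Of 52 E2F and DNA replication genes 1 rose (1.92%) and 2 fell (3.85%), under the 13.6% and 14.8% of all rows. BRCA1, a DNA repair gene, rose from 52.9 ± 7.36 to 75.0 ± 7.36 (log2 0.50, adjusted p = 0.049), a call that was lost without any of R2 replicates 1, 3 and 4 or control replicates 2, 3 and 4 (adjusted p = 0.081 to 0.12) and against either control pair (adjusted p = 0.33 and 0.055). DTL, a ubiquitin ligase component gene of S phase, was 60.4 ± 4.11 against 90.7 ± 16.95 (log2 -0.57, adjusted p = 0.016). Its call was lost without control replicate 1 (adjusted p = 0.051) or 2 (adjusted p = 0.055) and against control replicates 3 and 4 alone (adjusted p = 0.20).

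Receptor tyrosine kinases and their ligands fell more often than they rose, 12 (38.7%) against 2 (6.45%) of 31 measured, with a median of -0.39. Of all rows 14.8% fell and 13.6% rose. MERTK, a receptor kinase of one family with AXL, fell from 2.16, 1.99, 2.40 and 2.21 to 0.0582, 0.0931, 0.312 and 0.275 (log2 difference -1.99 ± 0.17 SE, adjusted p = 1.3e-06). EREG, the gene of the EGFR ligand epiregulin, read 5.29, 8.01, 6.90 and 9.59 in R2 and 22.4, 20.3, 20.7 and 20.4 in control (log2 difference -1.46 ± 0.17 SE, adjusted p = 2.1e-05), and FGF5 fell 2.83-fold (log2 -1.48, adjusted p = 4.0e-05). PDGFRB fell from 1.56, 3.19, 5.78 and 5.57 to 0.116, 0.279, 0.468 and 0.459 (log2 difference -2.34 ± 0.37 SE, adjusted p = 0.00030), with higher values in control replicates 3 and 4. AXL (1441 ± 96.5 against 1584 ± 80.1, log2 -0.14, adjusted p = 0.46) and EGFR (164 ± 17.9 against 173 ± 15.1, log2 -0.08, adjusted p = 0.74), both linked to drug tolerance in melanoma, did not pass. FGFR1 rose from 22.2, 24.8, 29.2 and 23.6 to 28.7, 31.8, 53.2 and 57.8 (log2 0.71, adjusted p = 0.022) with an overlapping range, and its adjusted p was 0.054 to 0.071 without R2 replicate 3 or 4 or control replicate 1 or 4, and 0.072 and 0.12 against the control pairs. The falls of this list numbered 11 to 13 with 1 library left out and 7 with pairs averaged; the count of rises was 1 without R2 replicate 3 or 4 or control replicate 1 or 4.

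Downstream of the receptors, 8 of 41 PI3K-AKT-mTOR members rose (19.5%) and 2 fell (4.88%), against 13.6% and 14.8% of all rows. AKT2, an AKT kinase gene, read 139.8, 134, 124 and 124 in R2 and 258, 238, 235 and 213 in control (log2 difference -0.85 ± 0.10 SE, adjusted p = 1.5e-05). PIK3R1, a regulatory subunit gene, rose from 29.7 ± 5.36 to 49.8 ± 6.81 (log2 0.74, adjusted p = 0.0045, and adjusted p = 0.074 against control replicates 1 and 2 alone). RPS6 (883 ± 94.8 against 771 ± 57.1, log2 0.19, adjusted p = 0.28), RPS6KB1 (43.4 ± 4.01 against 37.9 ± 4.79, log2 0.20, adjusted p = 0.33) and PIK3CA (35.4 ± 2.31 against 29.8 ± 1.61, log2 0.24, adjusted p = 0.17) did not pass. The rises numbered 4 without R2 replicate 1, 3 or 4 or control replicate 3, 5 without control replicate 4, 2 against control replicates 1 and 2 alone, and 1 with pairs averaged.

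**Figure D3:**
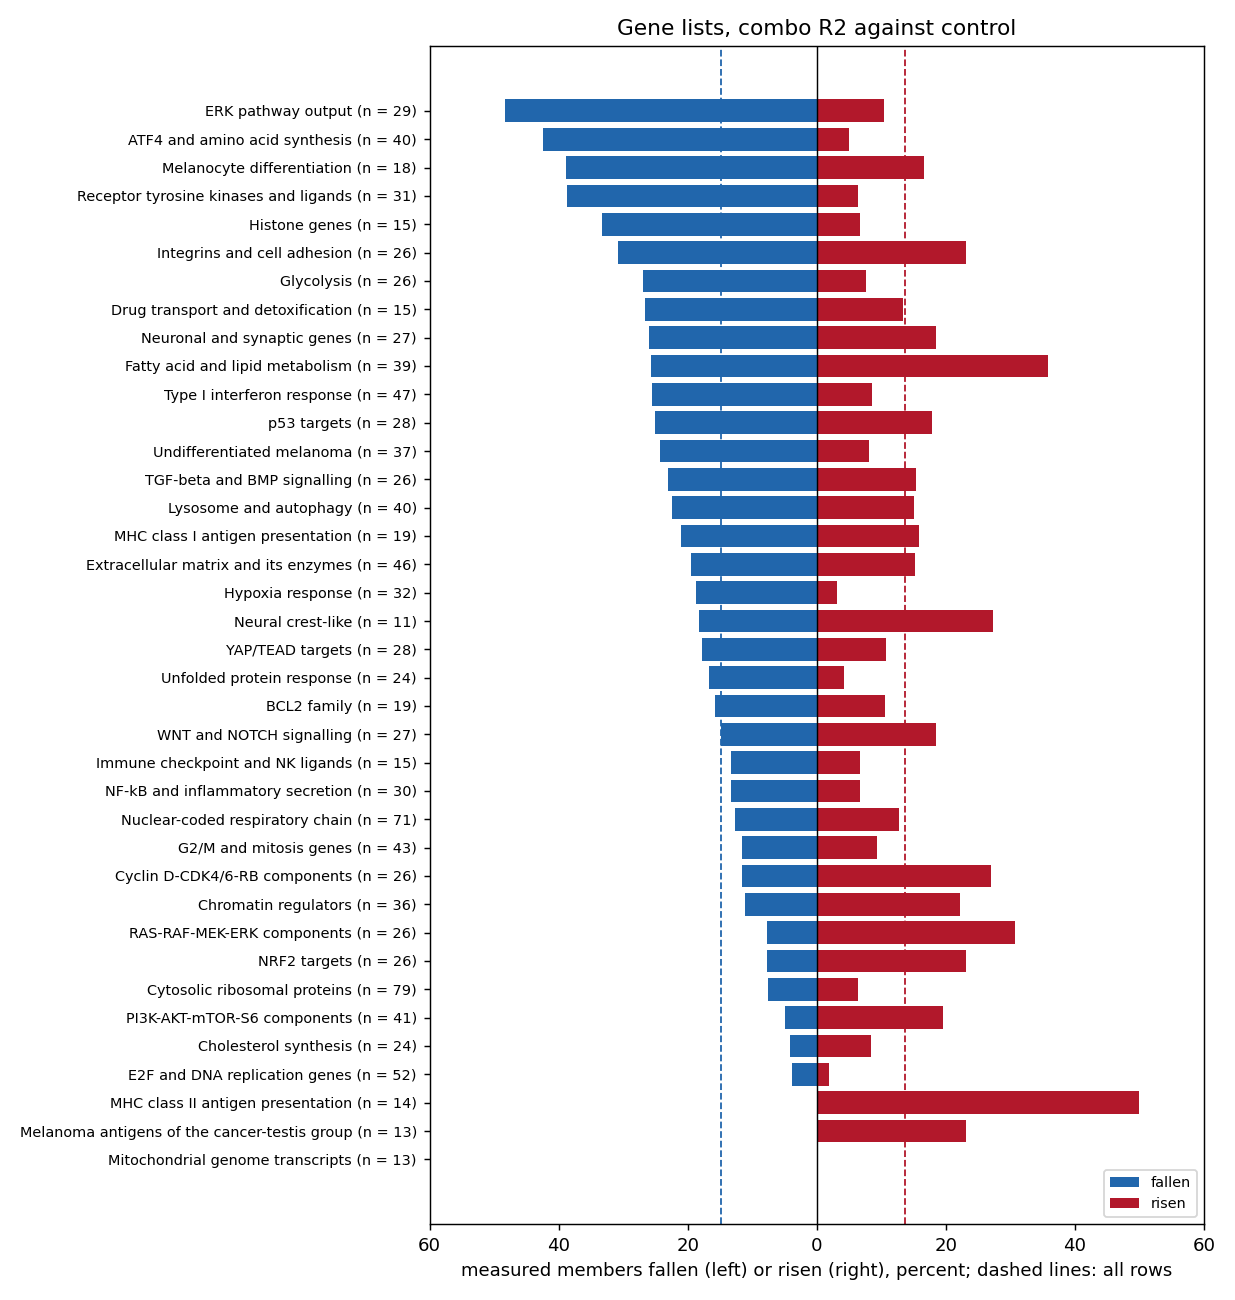
Percent of the measured members of each gene list with at least 10 measured members that fell (left) or rose (right) in R2 against control, with dashed lines at the 14.8% and 13.6% of all rows. ERK output, ATF4 and amino acid synthesis, receptor tyrosine kinase and melanocyte genes reach furthest left, and MHC class II genes furthest right.

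Of 18 measured melanocyte genes 7 fell (38.9%) and 3 rose (16.7%). Of the 7, 3 lie on chromosomes 12, 15 or 17, which held 769 of all 1782 placed falls. Of all rows 14.8% fell and 13.6% rose. The melanocyte falls numbered 3 against control replicates 3 and 4 alone, and with pairs averaged 1 fell and 1 rose. MITF, the master regulator of melanocytes, fell from 59.95, 56.2, 43.1 and 42.1 to 31.0, 27.6, 29.7 and 33.5 (log2 difference -0.70 ± 0.18 SE, adjusted p = 0.0093), with an adjusted p of 0.13 against control replicates 3 and 4 alone. RAB27A and MYO5A, which move pigment granules along actin, fell 2.26-fold (log2 -1.15, adjusted p = 5.5e-06) and 1.64-fold (log2 -0.71, adjusted p = 0.0027); both lie on chromosome 15. SNAI2 rose from 16.0 ± 1.65 to 28.6 ± 5.00 (log2 0.81, adjusted p = 0.0054). PMEL, a pigment granule matrix gene, was 8.81 ± 2.61 against 5.32 ± 1.15 (log2 0.66, adjusted p = 0.028), a call lost without control replicate 1 or 2 or R2 replicate 2 or 3 (adjusted p = 0.059 to 0.084) and against control replicates 3 and 4 alone (adjusted p = 0.23). BCL2A1, an antiapoptotic MITF target, read 2.38, 1.68, 5.43 and 5.28 in R2 and 1.26 ± 0.133 in control (log2 1.12, adjusted p = 0.012; adjusted p = 0.077 and 0.060 against the control pairs). SOX10, the neural crest regulator of the lineage, had no gene row in these data, so its level was not measured.

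Of 37 undifferentiated-state genes 9 fell (24.3%) and 3 rose (8.11%). With pairs averaged 6 fell and 0 rose, and 0 rose against control replicates 3 and 4 alone. F3, the gene of tissue factor, fell from 32.2, 22.9, 26.4 and 26.8 to 3.34, 2.42, 4.74 and 4.36 (log2 difference -2.74 ± 0.18 SE, adjusted p = 7.3e-08). F2RL1, a protease-activated receptor gene, fell 3.52-fold (log2 -1.79, adjusted p = 6.2e-06) and CTGF, a matricellular gene that YAP induces, fell from 676, 520.1, 1048 and 1015 to 174, 121, 221 and 234 (log2 difference -2.10 ± 0.31 SE, adjusted p = 0.00015). SPARC rose from 322 ± 38.8 to 459 ± 4.48 (log2 0.52, adjusted p = 0.0028, and adjusted p = 0.055 against control replicates 3 and 4 alone). TGFBI read 140.4, 57.3, 235 and 219 in R2 and 21.0, 29.6, 78.6 and 56.5 in control (log2 1.79, adjusted p = 0.0062, and adjusted p = 0.097 against control replicates 3 and 4 alone), and THBS1, thrombospondin 1, 521, 265, 951 and 819 and 408, 265, 297 and 276 (log2 0.90, adjusted p = 0.043). Both had overlapping ranges, and the THBS1 call was lost without any of R2 replicates 1, 3 and 4 or control replicates 2, 3 and 4 (adjusted p = 0.065 to 0.13), in a fit of the 8 libraries alone (adjusted p = 0.063) and against either control pair (adjusted p = 0.22 and 0.090). The neural crest list had 3 rises (27.3%) and 2 falls (18.2%) among 11, against 13.6% and 14.8% of all rows. L1CAM, a neural adhesion gene, fell from 13.9, 17.2, 44.1 and 32.9 to 1.72, 5.68, 0.842 and 1.06 (log2 difference -3.43 ± 0.45 SE, adjusted p = 6.2e-05), and ITGA6, an integrin gene, rose 1.92-fold (log2 0.94, adjusted p = 0.00013). TFAP2C fell from 26.4 ± 2.15 to 5.52, 6.28, 14.8 and 16.3 (log2 -1.41, adjusted p = 0.0026), while the related TFAP2A was 151, 239, 98.7 and 115 against 84.3 ± 4.27 (log2 0.75, adjusted p = 0.012; adjusted p = 0.074 and 0.066 against the control pairs).

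Of 46 matrix genes 7 rose (15.2%) and 9 fell (19.6%), near the 13.6% and 14.8% of all rows. LOXL1, a collagen and elastin crosslinking enzyme gene on chromosome 15, fell from 17.4, 23.4, 22.2 and 21.6 to 1.40, 1.12, 2.65 and 1.47 (log2 difference -3.37 ± 0.20 SE, adjusted p = 1.9e-08). TIMP3, the gene of a matrix protease inhibitor, had 1 R2 read and 140 control reads, a depth-scaled ratio of 173 with a 95% counting interval of 30.5 to 6875, and its R1 reads numbered 0. ADAMTS1, a secreted protease gene, fell from 886, 625, 660.0 and 636 to 115, 88.1, 222 and 219 (log2 difference -2.22 ± 0.26 SE, adjusted p = 2.4e-05). VCAN, the proteoglycan versican, rose 2.11-fold (log2 1.07, adjusted p = 3.7e-05), FBN2, fibrillin 2, 2.36-fold (log2 1.22, adjusted p = 8.9e-05) and LAMA4, a laminin chain gene, from 0.564 ± 0.198 to 4.04 ± 1.45 (log2 2.05, adjusted p = 7.2e-05). Among 26 adhesion genes 6 rose (23.1%) and 8 fell (30.8%). Of the 8, 4 lie on chromosomes 12, 15 or 17, which held 769 of all 1782 placed falls. Against control replicates 1 and 2 alone or with pairs averaged 5 fell. ALCAM rose from 73.3, 82.0, 88.5 and 96.3 to 169, 172, 171 and 188 (log2 difference 1.04 ± 0.11 SE, adjusted p = 1.3e-05) and CADM1 3.87-fold (log2 1.85, adjusted p = 0.00014), and TJP1, a tight junction scaffold gene on chromosome 15, fell 2.03-fold (log2 -1.02, adjusted p = 0.00020).

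The ATF4 and amino acid synthesis list had 17 falls (42.5%) and 2 rises (5.0%) among 40 measured genes, against 14.8% and 13.6% of all rows. Its median was -0.42, and 7 of the 17 lie on chromosomes 12, 15 or 17, which held 769 of all 1782 placed falls. ATF4 is the transcription factor of the amino acid and stress response. SHMT1 and SHMT2, which feed serine carbon into folate metabolism, fell 2.24-fold (log2 -1.15, adjusted p = 6.3e-05) and 1.502-fold (log2 -0.59, adjusted p = 0.00067), on chromosomes 17 and 12. CHAC1, a glutathione-degrading enzyme gene induced by ATF4, fell from 3.81, 4.98, 5.05 and 4.99 to 1.05, 1.16, 1.44 and 1.74 (log2 difference -1.50 ± 0.26 SE, adjusted p = 0.00064). PYCR1, which completes proline synthesis, rose 1.82-fold (log2 0.85, adjusted p = 0.00014) and SLC1A5, a glutamine transporter gene, from 186 ± 22.7 to 267 ± 48.2 (log2 0.51, adjusted p = 0.010, and adjusted p = 0.15 against control replicates 1 and 2 alone). Against control replicates 1 and 2 alone 4 of the 40 fell, against 3 and 4 alone 14, and with pairs averaged 6. In the unfolded protein response list 4 of 24 fell (16.7%) and 1 rose, and 2 fell against control replicates 1 and 2 alone. PDIA3, a disulfide isomerase gene, fell from 498 ± 90.3 to 177 ± 19.2 (log2 -1.48, adjusted p = 0.00018), HERPUD1 3.04-fold (log2 -1.58, adjusted p = 0.0019) and HSPA5, the chaperone BiP, from 1078, 1019, 1858 and 1562 to 388, 511, 437 and 435 (log2 -1.60, adjusted p = 0.011, and adjusted p = 0.13 against control replicates 1 and 2 alone). ERN1, the sensor IRE1, rose from 13.04 ± 0.902 to 22.2 ± 1.41 (log2 0.74, adjusted p = 0.0019).

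Control replicates 3 and 4 differed from 1 and 2 in genes that low oxygen induces, and the comparison with R2 turned on which pair was used. With no test, 184 rows (1.42%) were more than 2-fold higher in control replicates 3 and 4 without overlap, and 10 rows (0.0773%) more than 2-fold higher in 1 and 2. The hypoxia list held 19 of the former among its 32 measured genes, with a median log2 difference of 1.41 between the pairs. NDRG1, a stress gene, read 11.4, 32.0, 744 and 499 in control replicates 1 to 4, CA9, the carbonic anhydrase that hypoxic tumours expose, 0.601, 5.88, 82.9 and 63.5, BHLHE40, a transcription factor gene, 10.4, 15.7, 231 and 163, and ALDOC, a glycolytic aldolase gene, 47.6, 82.4, 542 and 398. In every one of these control replicates 3 and 4 lay far above 1 and 2. The same 4 genes read 33.9, 69.5, 28.3 and 26.9 for NDRG1, 1.95, 7.35, 1.06 and 0.780 for CA9, 5.58, 15.2, 17.01 and 20.3 for BHLHE40 and 56.9, 158, 48.6 and 42.9 for ALDOC in R2, in every library below control replicates 3 and 4. None of them passed against all controls (adjusted p = 0.38, 0.13, 0.12 and 0.17). Against control replicates 3 and 4 alone the adjusted p-values were 0.018, 0.0020, 0.0012 and 0.0061, and against 1 and 2 alone 0.63, 0.96, 0.97 and 0.96. These genes were picked for their gap between the control pairs, so this contrast follows in part from the choice. The log2 difference from replicates 1 and 2 alone lay above 0 for NDRG1 (0.92), BHLHE40 (0.04) and ALDOC (0.07).

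HIF, the hypoxia factor, is known to bind an ACGTG core. The letters TACGTG, searched on both strands (CACGTA on the other) in the 250 bases before the gene start in RefSeq (GRCh38.p14), occurred in 8 of the 25 hypoxia-list genes with a promoter entry (32%), in 11 of 125 such rows among the 184 (8.8%) and in 288 of 9317 rows overall (3.09%). The hypoxia list was made of genes known to respond to low oxygen, and 19 of its members are among the 184 rows. The shares of these sets are therefore not independent of each other. Windows of 120 bases from 4 of the promoters with a match are shown because their genes had large gaps between the control pairs, with the matched letters in capitals. CA9 is read from chr9:35673808-35673927 (+), ANKRD37, chosen after its values were seen, from chr4:185396637-185396756 (+), BHLHE40 from chr3:4979228-4979347 (+) and DDIT4 from chr10:72273738-72273857 (+).
CA9: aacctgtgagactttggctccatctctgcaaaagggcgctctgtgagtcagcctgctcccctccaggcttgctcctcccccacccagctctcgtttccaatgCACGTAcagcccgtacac
ANKRD37: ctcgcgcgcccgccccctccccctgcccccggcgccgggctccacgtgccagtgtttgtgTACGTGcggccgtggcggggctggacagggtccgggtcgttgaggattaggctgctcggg
BHLHE40: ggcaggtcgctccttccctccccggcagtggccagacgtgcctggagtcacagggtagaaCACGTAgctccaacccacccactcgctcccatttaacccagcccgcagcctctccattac
DDIT4: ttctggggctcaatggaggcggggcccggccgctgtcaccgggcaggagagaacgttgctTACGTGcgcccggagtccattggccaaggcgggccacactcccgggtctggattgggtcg
The capitals start 18, 144, 149 and 126 bases before the start sites, in this order. ANKRD37 read 1.56, 2.34, 11.98 and 10.3 in control and 2.30, 2.70, 1.93 and 1.19 in R2, with an adjusted p of 0.12 against all controls and 0.0012 against replicates 3 and 4 alone. A match describes letters and not binding.

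Over the whole hypoxia list 6 of 32 genes fell (18.75%) and 1 rose (3.125%) against all controls, with a median of -0.76. Of all rows 14.8% fell and 13.6% rose. Against control replicates 1 and 2 alone 2 fell and 2 rose, with a median of 0.04, and against 3 and 4 alone 22 fell and 1 rose, with a median of -1.46. Without control replicate 1 the falls numbered 12, and with pairs averaged 3. Some members fell against each pair. ADM, the vasodilator adrenomedullin, read 62.0, 41.7, 186 and 144 in control and 6.51, 8.94, 16.4 and 14.9 in R2 (log2 difference -3.004 ± 0.42 SE, adjusted p = 0.00010), and STC1, the hormone stanniocalcin, 241, 237, 452 and 444 and 31.1, 37.4, 83.5 and 90.3 (log2 difference -2.58 ± 0.35 SE, adjusted p = 8.8e-05). DDIT4, an mTOR inhibitor gene, read 61.5, 58.2, 418 and 365 in control and 41.8, 68.0, 16.8 and 13.5 in R2 (log2 -2.41, adjusted p = 0.013), with an adjusted p of 0.23 against replicates 1 and 2 alone. ANGPTL4, a lipase inhibitor gene, read 4.17, 8.37, 30.8 and 17.02 and 1.80, 1.35, 1.09 and 0.780 (log2 -2.84, adjusted p = 0.0022, and adjusted p = 0.051 against replicates 1 and 2 alone). EPAS1, the gene of HIF2-alpha, rose from 9.82 ± 2.25 to 23.2, 35.5, 22.4 and 20.8 (log2 difference 1.33 ± 0.19 SE, adjusted p = 0.00015). Of the 184 rows higher in control replicates 3 and 4, 55 fell and 4 rose in R2 against all controls, 118 fell against 3 and 4 alone and 21 against 1 and 2 alone. The rows were picked for high values in control replicates 3 and 4. More falls against that pair than against the other therefore follow in part from the choice.

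**Figure D4:**
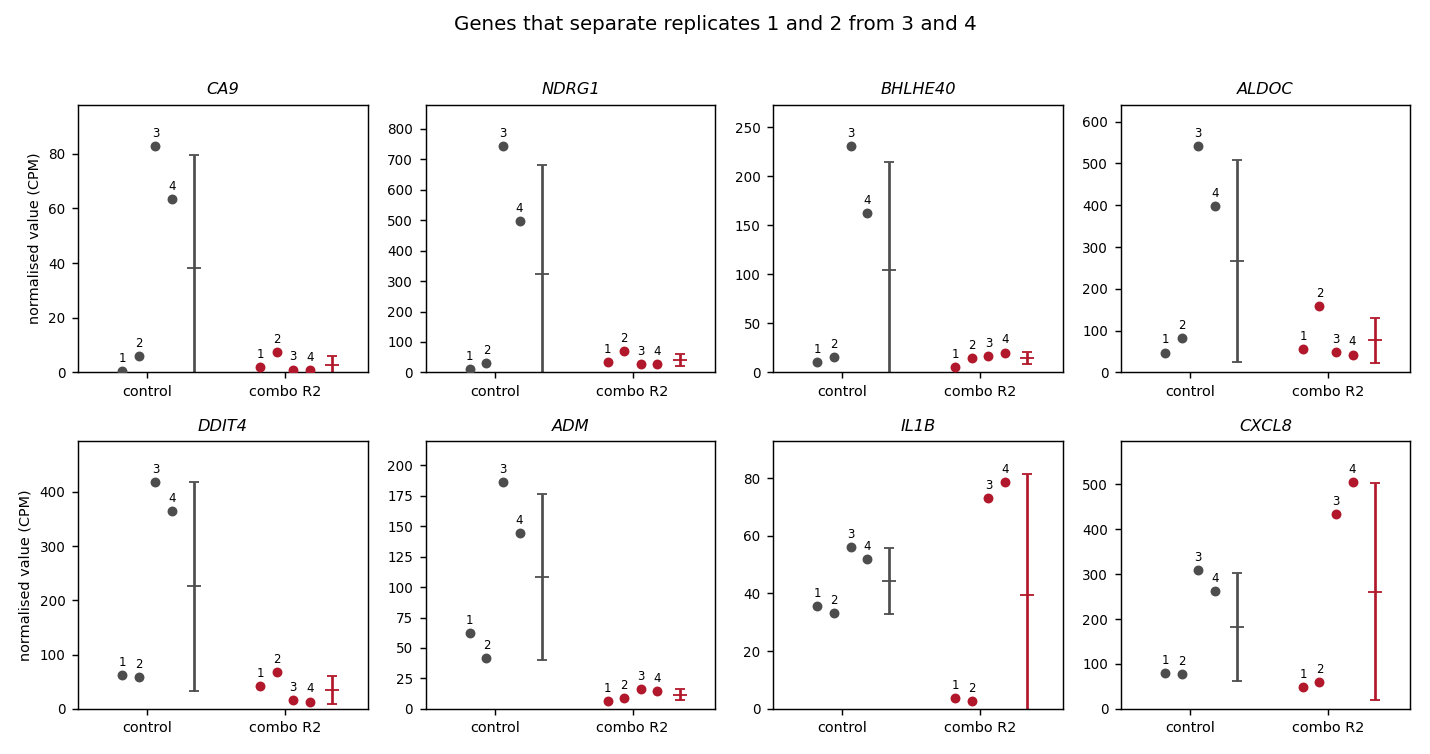
Normalised values (CPM) of 8 genes in the 4 control and 4 R2 libraries, with points numbered by replicate. CA9, NDRG1, BHLHE40 and ALDOC are high in control replicates 3 and 4, and IL1B and CXCL8 are high in R2 replicates 3 and 4.

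Glycolysis genes followed the same pairs. All 7 that fell, of 26 (26.9%), lie on chromosomes 12, 15 or 17, and 2 rose (7.69%). Of all rows 14.8% fell and 13.6% rose. GAPDH read 17186, 15674, 27070.0 and 22879 in control and 8338, 11163, 8904 and 8574 in R2 (log2 -1.14, adjusted p = 0.0034, and adjusted p = 0.067 against control replicates 1 and 2 alone), PKM, pyruvate kinase, fell 1.86-fold (log2 -0.90, adjusted p = 0.00058) and TPI1 1.74-fold (log2 -0.80, adjusted p = 0.0013). Falls numbered 2 against control replicates 1 and 2 alone, 12 against 3 and 4 alone, 4 without control replicate 3, control replicate 4 or R2 replicate 4, and 1 with pairs averaged. The rises were 1 without R2 replicate 3 or 4 or control replicate 1, 2 or 3. Of 24 cholesterol synthesis genes 1 fell (4.17%) and 2 rose (8.33%) against all controls, both under the shares of all rows. However, 10 fell against control replicates 3 and 4 alone and 0 against 1 and 2 alone, and 2 fell without R2 replicate 2 and 0 with pairs averaged. In the other direction between the pairs, DHRS2, a reductase gene, read 13.2, 13.6, 2.03 and 2.42 in control and 0.727, 0.233, 0.811 and 1.10 in R2 (log2 -2.39, adjusted p = 0.0022), and TXNIP, a glucose-responsive gene, 266, 173, 34.4 and 35.6 and 394, 654, 53.9 and 34.6 (log2 0.77, adjusted p = 0.65, and log2 -0.53 against replicates 1 and 2 alone). ATF5, a stress-induced transcription factor gene, read 54.6, 39.4, 24.0 and 20.7 in control and 20.7, 25.6, 19.7 and 24.6 in R2 (log2 -0.50, adjusted p = 0.20, and adjusted p = 0.025 against replicates 1 and 2 alone). E2F2, HPDL and PIGW were likewise lower in control replicates 3 and 4 and did not pass against all controls (adjusted p = 0.46, 0.19 and 0.75), while HPDL had an adjusted p of 0.044 against 3 and 4 alone. ICAM1, an adhesion receptor gene, went the other way, at 3.01, 5.06, 35.2 and 24.5 in control and 9.86, 19.5, 26.1 and 26.5 in R2 (log2 0.77, adjusted p = 0.48, and log2 -0.61 against replicates 3 and 4 alone).

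The R2 pairs also differed. Without a test, 264 rows (2.04%) were more than 2-fold higher in R2 replicates 3 and 4 than in 1 and 2 with no overlap, and 109 (0.843%) more than 2-fold lower. Of 30 NF-kB and inflammatory secretion genes, 12 were among the 264, and 8 of the same 30 were among the 184 rows higher in control replicates 3 and 4 than in 1 and 2. IL1B, the inflammatory cytokine, read 3.78, 2.56, 73.0 and 78.6 in R2 and 35.8, 33.4, 56.2 and 52.0 in control (log2 -1.40, adjusted p = 0.26), and CXCL8, the chemokine IL-8, 47.6, 59.2, 433 and 505 and 80.5, 78.3, 309 and 263 (log2 0.07, adjusted p = 0.96, and log2 -0.85 against control replicates 3 and 4 alone); both were chosen after their values were seen. ENAH, an actin regulator gene chosen in the same way, read 0.320, 0.233, 36.9 and 44.3 in R2 and 80.3, 89.8, 64.0 and 72.2 in control (log2 -3.76, adjusted p = 0.018), a call that edgeR (adjusted p = 0.14) and DESeq2 (adjusted p = 0.20) did not make and that was lost without R2 replicate 1 (adjusted p = 0.057) and against either control pair (adjusted p = 0.088 and 0.092). Against all controls the NF-kB list had 4 falls (13.3%) and 2 rises (6.67%), against 14.8% and 13.6% of all rows. TNFAIP2, a TNF-induced gene, fell from 13.6, 16.5, 17.6 and 15.3 to 0.494, 1.72, 1.19 and 0.780 (log2 difference -3.45 ± 0.21 SE, adjusted p = 3.0e-08), IL11 4.27-fold (log2 -2.16, adjusted p = 6.8e-05) and PTGS2, cyclooxygenase 2, from 2.89, 3.54, 19.1 and 15.7 to 0.785, 1.54, 0.874 and 0.964 (log2 -2.42, adjusted p = 0.0031). The 2 rises were 1 without R2 replicate 1 or control replicate 4 and 0 without R2 replicate 3 or 4 or control replicate 1 or 2, and with pairs averaged 2 fell and 0 rose.

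In MHC class II, which presents peptides to helper T cells, 7 of 14 measured genes rose (50%, against 13.6% of all rows) and 0 fell, with a median of 0.60. HLA-DRA read 20.1, 15.7, 24.6 and 27.8 in R2 and 3.29, 2.65, 4.95 and 4.73 in control (log2 difference 2.36 ± 0.21 SE, adjusted p = 1.4e-06), HLA-DRB1 21.3, 18.9, 36.9 and 28.6 and 1.76, 1.75, 4.17 and 2.36 (log2 difference 3.18 ± 0.25 SE, adjusted p = 4.7e-07), and HLA-DPB1 rose 4.91-fold (log2 1.99, adjusted p = 0.00012). No R2 value of these 3 overlapped a control value, and counts of HLA genes are uncertain because near-identical copies share reads. Against control replicates 1 and 2 alone 6 rose, against 3 and 4 alone 5 rose and 1 fell, with pairs averaged 4 rose, and 1 gene fell without control replicate 1. Of 19 class I genes 3 rose (15.8%) and 4 fell (21.1%), near the shares of all rows, and with pairs averaged 0 rose and 1 fell. B2M, the class I light chain on chromosome 15, fell from 509.7, 518, 638 and 622 to 396, 430.0, 316 and 373 (log2 -0.59, adjusted p = 0.0023, and adjusted p = 0.056 against control replicates 1 and 2 alone), PSMB10, an immunoproteasome gene, fell 2.46-fold (log2 -1.11, adjusted p = 0.0032), and TAP2, a peptide transporter gene, rose from 25.4 ± 4.09 to 40.1, 34.7, 59.2 and 68.5 (log2 0.94, adjusted p = 0.0040, and adjusted p = 0.070 against control replicates 1 and 2 alone). Type I interferon genes had 12 falls (25.5%) and 4 rises (8.51%) among 47, against 14.8% and 13.6% of all rows. Their median was 0.01. IRF7, an interferon regulator, fell from 33.4, 34.2, 40.5 and 36.7 to 7.94, 17.6, 12.04 and 9.09 (log2 difference -1.65 ± 0.20 SE, adjusted p = 3.2e-05), the interferon-induced EPSTI1 2.52-fold (log2 -1.09, adjusted p = 0.00055) and HERC6 1.65-fold (log2 -0.67, adjusted p = 0.00069), while IFI16, a DNA sensor gene, rose 1.505-fold (log2 0.58, adjusted p = 0.00050) and USP18 was 3.09 ± 0.621 against 1.63 ± 0.118 (log2 0.74, adjusted p = 0.0077, and adjusted p = 0.070 against control replicates 1 and 2 alone). The falls numbered 8 to 13 with 1 library left out and 1 with pairs averaged, and the rises 2 without R2 replicate 4, control replicate 2 or 4 or against control replicates 1 and 2 alone and 1 with pairs averaged.

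Of 39 lipid genes 14 rose (35.9%) and 10 fell (25.6%), against 13.6% and 14.8% of all rows. Against control replicates 1 and 2 alone 9 rose and 5 fell, and with pairs averaged 6 rose and 5 fell. ACSL1, which activates fatty acids, rose from 8.05, 11.1, 8.65 and 10.6 to 21.5, 27.0, 31.6 and 28.1 (log2 difference 1.45 ± 0.15 SE, adjusted p = 7.9e-06), FABP5, a fatty acid carrier, 2.26-fold (log2 1.14, adjusted p = 9.9e-05) and DGAT2, which completes triglyceride synthesis, from 0.160, 0.156, 0.156 and 0.473 to 1.77, 1.91, 5.83 and 4.82 (log2 difference 2.35 ± 0.33 SE, adjusted p = 0.00012). LIPE, hormone-sensitive lipase, had 0 R2 reads and 59 control reads, at least 24.3-fold lower with the floor of 3 reads over the group. MGLL, monoglyceride lipase, fell 1.63-fold (log2 -0.73, adjusted p = 0.0013) and SREBF1, the lipid synthesis regulator on chromosome 17, from 169.6, 129, 124 and 113 to 57.0, 66.9, 55.5 and 49.7 (log2 difference -1.21 ± 0.23 SE, adjusted p = 0.0015).

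Genes of oxidative defence and drug handling changed in both directions. Of 26 NRF2 targets 6 rose (23.1%) and 2 fell (7.69%), against 13.6% and 14.8% of all rows. Of 15 measured drug transport and detoxification genes 2 rose (13.3%) and 4 fell (26.7%). With 1 library left out 0 to 2 of these rose and 4 to 5 fell, and with pairs averaged 0 rose and 3 fell. GCLC and GCLM, the subunits of the first enzyme of glutathione synthesis, rose 1.80-fold (log2 0.82, adjusted p = 0.00066) and 1.85-fold (log2 0.81, adjusted p = 0.0024). ABCC2, a drug efflux pump gene, read 0.611, 0.745, 1.25 and 0.918 in R2 and 3.49, 3.47, 3.70 and 3.89 in control (log2 difference -1.60 ± 0.18 SE, adjusted p = 1.2e-05).

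Among the regulators of cell death, BMF, a proapoptotic gene on chromosome 15, fell from 13.1, 15.7, 8.60 and 10.2 to 3.08, 4.38, 1.75 and 1.61 (log2 difference -2.01 ± 0.28 SE, adjusted p = 9.2e-05), and BCL2L1, the gene of BCL-XL, fell 1.73-fold (log2 -0.79, adjusted p = 0.00022). The BCL2 family list had 2 rises (10.5%) and 3 falls (15.8%) among 19, near the 13.6% and 14.8% of all rows. The rises were 1 without R2 replicate 1 or 3 or control replicate 1 or 2 and 0 with pairs averaged. Against control replicates 3 and 4 alone 5 fell and 0 rose. TCF7, a WNT effector gene, fell from 10.4, 10.1, 11.6 and 10.9 to 0.204, 0.233, 0.281 and 0.229 (log2 difference -3.93 ± 0.16 SE, adjusted p = 4.2e-10), while FZD3, a WNT receptor gene, rose from 0.289 ± 0.140 to 1.45, 1.12, 3.15 and 3.76 (log2 1.77, adjusted p = 0.00030). BAMBI, a decoy receptor of TGF-beta, rose 5.55-fold (log2 1.86, adjusted p = 2.8e-05) and FST, the activin inhibitor follistatin, fell 5.05-fold (log2 -2.22, adjusted p = 7.2e-05). PRAME, a melanoma antigen, rose from 12.8, 17.3, 17.9 and 19.7 to 49.4, 48.9, 53.7 and 51.5 (log2 difference 1.58 ± 0.14 SE, adjusted p = 1.3e-06). H1F0, a linker histone gene of resting cells, fell from 1061, 1269, 946 and 917 to 282, 366, 265 and 299 (log2 difference -1.79 ± 0.14 SE, adjusted p = 6.6e-07). Of 13 cancer-testis antigens measured 3 rose (23.1%) and 0 fell, against 13.6% and 14.8% of all rows. In the WNT and NOTCH list 5 of 27 rose (18.5%) and 4 fell (14.8%), near those shares, and 2 and 2 with pairs averaged. Neuronal and synaptic genes had 5 rises (18.5%) and 7 falls (25.9%) among 27. The 13 measured transcripts of the mitochondrial genome had 0 rises and 0 falls. Of 79 cytosolic ribosomal protein genes 5 rose (6.33%) and 6 fell (7.59%), under the shares of all rows, and all 6 lie on chromosomes 12, 15 or 17. The rises were 2 without R2 replicate 1 or control replicate 1 or 2 and 3 without R2 replicate 2 or control replicate 4, and with pairs averaged 0 rose and 2 fell.

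Set against R1, which carries the same diet label, R2 was higher in 2945 rows (22.8%) and lower in 3108 (24.0%). The R1 fit shares the R2 libraries with the control fit, so each gene's values are given side by side. NRAS, the driver of this line, averaged 978 ± 109 in the R1 libraries against 144 ± 24.8 in R2 (R2 minus R1 log2 -2.77, adjusted p = 1.2e-09) and 126 ± 12.6 in control. MAP2K1 was 99.9 ± 14.8 in R1, above both 36.2 ± 1.03 in R2 and 69.4 ± 7.25 in control. ERK output genes were lower in R2 than in R1 for 17 of 29 and higher for 5. MHC class II genes were lower than in R1 for 11 of 14 and higher for 1. HLA-DRA averaged 111 ± 19.2 in R1, between which and the control mean of 3.90 ± 1.12 the R2 mean of 22.1 ± 5.25 lay. Cytosolic ribosomal protein genes were lower in R2 than in R1 for 60 of 79, and all 13 mitochondrial genome transcripts were higher, while R1 libraries had a mitochondrial share of 2.39% ± 0.515, and the part of that share in these counts was not tested.

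Genes high in R2 and nearly absent from R1 included RYR1, a calcium release channel gene, at 12.7, 12.3, 13.9 and 12.6 in R2, 0.0515 ± 0.0224 in R1 and 0.788 ± 0.247 in control. SSX1, a cancer-testis antigen gene, read 23.4, 22.3, 44.1 and 47.7 in R2, 0.330 ± 0.0992 in R1 and 7.25 ± 0.922 in control. OR51B4 and HBE1 rose against control (log2 1.24, adjusted p = 1.2e-05 and log2 1.15, adjusted p = 0.00090) and averaged 0.0326 ± 0.0222 and 0.0948 ± 0.0879 in R1; the annotated span of HBE1 covers OR51B4, so reads of the pair cannot be told apart here. SDPR, a caveola gene, stood at 20.2 ± 6.94 in R2, below 50.8 ± 2.24 in control and above 0.0763 ± 0.0347 in R1. On the low side, TGM2, tissue transglutaminase, read 4.56, 4.65, 4.59 and 4.27 in R2, 43.8, 40.3, 61.1 and 53.8 in control and 149, 131, 136 and 137 in R1 (log2 difference -3.31 ± 0.12 SE, adjusted p = 2.1e-10 against control). EGFL7, an angiogenic factor gene, had 1 R2 read and 312 control reads, a depth-scaled ratio of 385 with a 95% counting interval of 68.6 to 15262, and averaged 16.2 ± 3.32 in R1. NOS3, endothelial nitric oxide synthase, was 0.300 ± 0.0792 in R2, 3.40 ± 0.609 in control and 17.5 ± 4.48 in R1. SEMA3F, a guidance factor gene, was 0.788 ± 0.252, 2.62 ± 0.735 and 26.5 ± 7.73 in the same order, and VGF, a neuropeptide precursor gene, 2.94 ± 3.23, 40.3 ± 29.5 and 152 ± 141. CORO2B had 4 R2 reads and 24 control reads and averaged 16.8 ± 3.59 in R1; its call against control (log2 -0.51, adjusted p = 0.038) was lost without any 1 of the 8 libraries (adjusted p = 0.054 to 0.085) and against either control pair (adjusted p = 0.10 and 0.17).

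**Figure D5:**
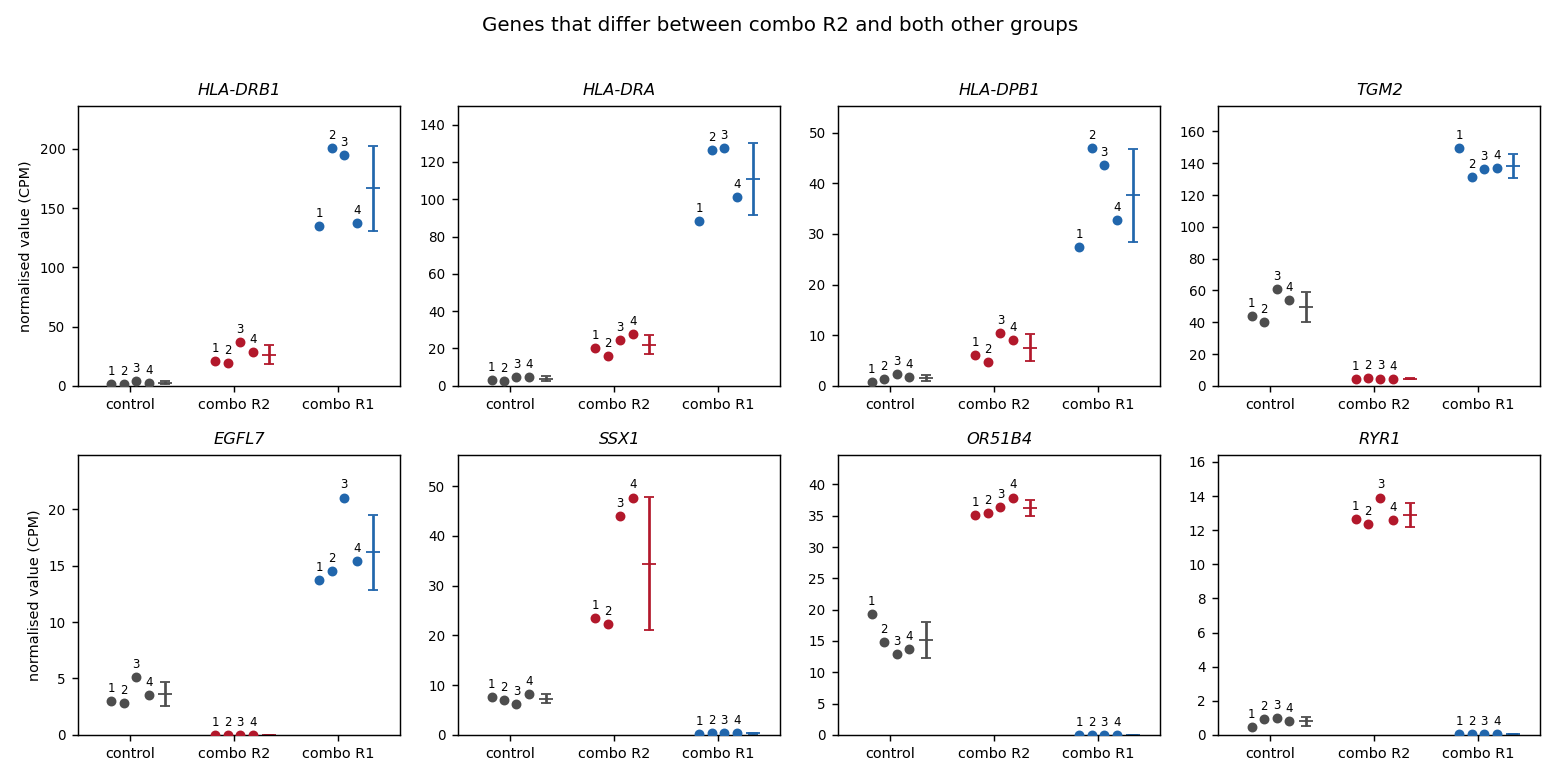
Normalised values (CPM) of 8 genes in the control, R1 and R2 libraries, with points numbered by replicate and bars for mean ± SD. The MHC class II genes, TGM2 and EGFL7 are highest in R1, while SSX1, OR51B4 and RYR1 are highest in R2.

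Markers of other cell types were counted in the same way, and of all rows 13.6% rose and 14.8% fell. Of 13 melanoma markers 6 were measured, and 2 rose and 2 fell. Their summed value was 6599 ± 177 in R2 and 5343 ± 455 in control. PRAME, PMEL and MITF made up little of that sum, so it mostly reflects the other measured markers. Whether it follows the share of melanoma cells was not tested. Fibroblast and pericyte markers, 6 of 12 measured, summed to 778 ± 39.1 and 706 ± 54.1, and 2 fell, PDGFRB and LUM, the matrix gene lumican (log2 -1.46, adjusted p = 0.0017). THY1, a surface marker gene, rose (log2 0.39, adjusted p = 0.023), a call lost without control replicate 1, 2 or 4 or R2 replicate 1 or 2 (adjusted p = 0.055 to 0.066) and against either control pair (adjusted p = 0.072 and 0.13). Endothelial markers, 5 of 12 measured, summed to 183 ± 23.5 and 195 ± 19.0, with all 5 log2 differences below 0 and a median of -0.63, and 2 fell, EGFL7 and PECAM1, an endothelial junction gene. PECAM1 read 0.901, 0.791, 0.406 and 0.688 in R2 and 0.842, 1.71, 3.96 and 2.52 in control (log2 -1.09, adjusted p = 0.033), a call lost without control replicate 2, 3 or 4 or R2 replicate 3 or 4 (adjusted p = 0.0503 to 0.11) and against control replicates 1 and 2 alone (adjusted p = 0.37). Of 15 leukocyte markers 1 was measured, CSF1R, the macrophage growth factor receptor, and it fell from 1.12, 1.48, 3.18 and 2.15 to 0.349, 0.559, 0.562 and 0.688 (log2 -1.20, adjusted p = 0.019). Its adjusted p was 0.22 against control replicates 1 and 2 alone and 0.052 to 0.069 without R2 replicate 1 or control replicate 3 or 4. The part of other cells in the results was not tested.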

How the data were processed

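RNA from 12 libraries of 3 groups was sequenced; per the labels' protocols RNA was taken with an RNeasy mini kit and libraries with a TruSeq kit that does not mark strand, so antisense and overlapping genes cannot be told apart. The authors deposited 1 normalised signal per gene and library; STAR, edgeR and GRCh38 appear in the submitters' processing notes, without versions. The deposited signal equals CPM scaled by edgeR's between-library method to a ratio of 0.998, and whole reads were recovered from 100% of values within 0.001 read. Values plus 0.5 were log2 transformed and fitted with limma 3.58.1 (R 4.3.3) with a mean-variance trend over all 12 libraries, without replicate numbers as a block, and Benjamini-Hochberg adjusted over 12931 rows (12929 symbols). Count tests on recovered reads called 1725 rises and 1839 falls (edgeR 4.0.16) and 1842 and 2106 (DESeq2 1.42.0). The fit was also run on simulated counts of independent libraries with the same spread setting for every gene. That simulation held no replicate pairs, so it does not cover the pairs seen in these libraries. Gene positions came from GENCODE release 29 by symbol (91.4% of rows).

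Groups, 45 gene lists and other choices were made with earlier results of these data known. Named genes were the 12 largest changes each way with a mean of at least 5 and no overlap, up to 3 called genes per list and direction with the smallest adjusted p, 25 fixed pathway genes (24 measured), the 6 largest differences each way between control pairs and the 6 each way between R2 and R1. A few genes that the rule names are not reported here. Other named genes are marked as chosen after their values were seen. Intervals and floors (3 reads) cover counting error only. Alternatives were other pseudocounts, filters, scalings, tools, control pairs and libraries left out in turn.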

Additional observations from a re-analysis of the deposited data

Results flagged for a closer look

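In 16 of 354 groups of 4 values (4.52%; chance gives about 1 in 20) 1 library stood apart from the other 3 of its group by Dixon's criterion. R2 replicate 2 was that library in 7 of the 16. It was high for COL24A1 (30.7, others 16.7 to 18.9), EMC10 (78.2, others 43.5 to 49.4), EPAS1 (35.5, others 20.8 to 23.2), NDRG1 (69.5, others 26.9 to 33.9), ALDOC (158, others 42.9 to 56.9) and VGF (7.77, others 1.09 to 1.61), and low for FOXM1 (223, others 289 to 299). R2 replicate 1 was high for E2F4 (295, others 246 to 248) and BCL2L1 (127, others 103 to 104). It held the single R2 read of TIMP3 and that of EGFL7 (0.0291 each, others 0). R2 replicate 4 was low for MAP2K2 (202, others 246 to 253) and high for ALCAM (188, others 169 to 172).

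Among the controls, replicate 1 was high for ADAMTS1 (886, others 625 to 660.0) and low for CHAC1 (3.81, others 4.98 to 5.05), and replicate 4 was high for DGAT2 (0.473, others 0.156 to 0.160).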

How the results depend on the processing

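The counts of rises and falls against control stayed within 1.5 times of 1756 and 1911 under every alternative run except 2. Against control replicates 1 and 2 alone 889 rows rose and 1143 fell, and with replicate pairs averaged, a choice made after seeing the data that leaves 2 values a group, 524 rose and 789 fell; both fit fewer samples. With 1 library left out, 1290 to 1646 rows rose and 1505 to 1861 fell, and 2528 to 3042 were higher and 2717 to 3129 lower than in R1. With the replicate number as a block 1810 rose and 1923 fell, and 3024 were higher and 3138 lower than in R1. Deviations of same-numbered R2 and control libraries from their group means had correlations of 0.085, -0.216, -0.040 and 0.014. These cannot show whether the numbers mark a shared batch, and the labels give no meaning for them. The block took the calls of CCND1 (adjusted p = 0.053) and CORO2B (0.054). Of the 145 called genes named in the text, 131 kept the call with any 1 library left out, 26 lost it against control replicates 1 and 2 alone, 18 against 3 and 4 alone and 39 with pairs averaged. No called gene named in the text changed sign in any alternative (0 genes). Of 28 named genes that were not called 10 did, each against 1 control pair: NDRG1, BHLHE40, ALDOC, ANKRD37 and TXNIP against replicates 1 and 2, and ICAM1, CXCL8, ATF5, EGFR and PIGW against 3 and 4, with CXCL8 and PIGW also with 1 library left out. CDKN2A passed in the fit of the 8 libraries alone (0.036), by DESeq2 (0.035), scaled to total listed reads (0.042) and without R2 replicate 2 (0.038) or control replicate 2 (0.043), and CA9, BHLHE40 and ANKRD37 fell by edgeR (0.033, 0.024 and 0.044) and DESeq2 (0.011, 0.010 and 0.034). The cause was not tested. Of 1748 list counts recomputed, 325 moved by more than 1.5 times. A value under that of 3 reads (0.0872 to 0.158) was not distinguishable from 0 at this depth.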
